A study of Mus musculus with 18 samples.

Results

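The 39 genes described here are listed interferon-induced genes of the mouse, among them 8 guanylate-binding proteins. They were taken by name and matched to 39 of the 51912 gene identifiers in the expression table through the GRCm38 annotation. The rule itself uses no measured value, though the list was drawn up with earlier results of these data known. By role they were 8 guanylate-binding proteins, 7 immunity-related GTPases, 4 transcription factors, 3 RNA and DNA sensors, 11 antiviral effectors, ISG15 with its protease, and 4 other induced genes. They were measured by RNA sequencing in B cells of Sh3gl1-/- mice, which lack endophilin A2, a membrane-bending protein of endocytosis, and of Sh3gl1+/+ littermates (WT). Both genotypes were of the C57BL/6 strain, and the deletion was carried by the whole animal, so that non-B cells lacked the protein as well. The 18 libraries formed 6 groups of 3 replicates, namely untreated transitional B cells, untreated follicular B cells and follicular B cells kept for 14 h with CD40L, each from WT and from Sh3gl1-/- animals. CD40L is the ligand by which T cells signal to B cells through CD40, and the figure legends of the study name a longer culture than the labels do. The age and sex of the animals used for RNA are not given in the sources used here.

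Interferons are cytokines of antiviral and antibacterial defence. Type I and type III interferons act through receptors that activate a complex with STAT2 and IRF9, which binds the interferon-stimulated response element (ISRE). Interferon-γ acts through the gamma-activated sequence (GAS), and its targets include the transcription factor IRF1 and the large GTPases that act at the membranes around intracellular microbes. In resting B cells many of these genes are also expressed at a low tonic level that depends on interferon receptors.

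The DNA ahead of these genes is shown because it holds the letters that the factors of both interferon types bind. RefSeq promoter windows on build GRCm38.p6, from 250 bases before to 50 bases after a start, were found for 25 of the 39 members. The ISRE core was searched as GAAANNGAA, the GAS as TTCNNNGAA and an NF-κB site as GGANNTTCC, each on both strands and with any overlap allowed. The ISRE core was in a window of 18 of the 25 members (72%), the GAS in 10 (40%) and the NF-κB site in 6 (24%). Of the 27025 genes with a window, 9.76% held the ISRE core, 9.55% the GAS and 4.86% the NF-κB site, and of all 32851 windows 8.56%, 8.3% and 4.26% did. In the Bst2 window the GAS letters overlapped those of an ISRE core. A match describes letters and not a bound site.

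In 4 immunity-related GTPases, Tgtp1, Tgtp2, Igtp and Irgm2, the GAS stood ahead of the ISRE core with 2 bases between them. Only 8 of all 32851 windows (0.0244%) held that arrangement. The spacing searched was that of these members, so the share describes it and is no test of it. The printed stretches of Igtp and Irgm2 are nearly the same, and Tgtp1 and Tgtp2 share most of their transcript sequence. The 4 genes are therefore not separate occurrences of the arrangement. These stretches are printed 5′ to 3′ on the strand of the gene, with the letters of GAS and ISRE core in capitals. Tgtp1 is shown from chr11:48992300-48992369 (minus strand), Tgtp2 from chr11:49064259-49064328 (minus strand), Igtp from chr11:58199476-58199545 (plus strand) and Irgm2 from chr11:58214867-58214936 (plus strand).
Tgtp1: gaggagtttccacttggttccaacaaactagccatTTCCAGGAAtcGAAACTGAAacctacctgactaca
Tgtp2: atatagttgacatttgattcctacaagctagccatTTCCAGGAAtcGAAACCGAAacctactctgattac
Igtp: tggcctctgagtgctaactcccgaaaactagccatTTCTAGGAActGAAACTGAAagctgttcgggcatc
Irgm2: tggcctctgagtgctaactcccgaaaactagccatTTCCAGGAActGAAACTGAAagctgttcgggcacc

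The window of Isg15 held 3 ISRE cores that run into each other, that of Ifit1 held 3, and that of Stat2 held 1, all without a GAS. The first Irf1 window held a GAS and no ISRE core, and the Gbp7 window held both, further apart. They are shown for contrast, Isg15 from chr4:156200861-156200930 (minus strand), Ifit1 from chr19:34640759-34640828 (plus strand), Stat2 from chr10:128270248-128270300 (plus strand), Irf1 from chr11:53769878-53769947 (plus strand) and Gbp7 from chr3:142530238-142530307 (plus strand).
Isg15: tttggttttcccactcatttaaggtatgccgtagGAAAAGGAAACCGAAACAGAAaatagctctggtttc
Ifit1: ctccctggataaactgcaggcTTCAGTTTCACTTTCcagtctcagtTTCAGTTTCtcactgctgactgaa
Stat2: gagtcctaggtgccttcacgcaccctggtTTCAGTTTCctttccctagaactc
Irf1: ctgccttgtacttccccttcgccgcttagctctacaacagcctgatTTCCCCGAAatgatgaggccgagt
Gbp7: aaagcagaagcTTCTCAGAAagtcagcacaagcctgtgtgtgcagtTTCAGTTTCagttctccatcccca

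The libraries held between 12404665 and 18366011 assigned read counts, and no pair of replicates agreed within sampling noise. Sh3gl1 had 377 to 929 counts in WT and 1 to 22 in Sh3gl1-/- libraries, and no library went against its genotype label. The B-cell genes Cd79a, Cd79b, Ms4a1 and Pax5 were high throughout, Cd93 was higher in transitional and Fcer2a and Cr2 were higher in follicular cells. Genes of erythroid, plasma, T, NK and myeloid cells were also counted in every ex vivo group. In bulk RNA, more cells of a type and more RNA per cell cannot be told apart. The labels number the replicates without naming animals, while the study describes its RNA replicates as mice. Follicular libraries ex vivo entered several of the comparisons, which are therefore not independent of each other.

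On GRCm38 with the GENCODE M21 annotation the guanylate-binding proteins lie in clusters on chromosomes 3 and 5. Gbp7 (ENSMUSG00000040253) spans chr3:142530342-142550149, Gbp3 (ENSMUSG00000028268) chr3:142560026-142573209 and Gbp2 (ENSMUSG00000028270) chr3:142620602-142638008, all on the plus strand. Tgtp1 (ENSMUSG00000078922) spans chr11:48985327-48994172 and Tgtp2 (ENSMUSG00000078921) chr11:49057194-49064206, both on the minus strand. Irf1 (ENSMUSG00000018899) spans chr11:53770014-53778374 and Stat2 (ENSMUSG00000040033) chr10:128270559-128292849 on the plus strand, and Ly6a (ENSMUSG00000075602) spans chr15:74994877-74998031 on the minus strand. The values are expected counts for the whole gene, summed over its transcripts.

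All 39 members were detected in each of the 12 ex vivo libraries. On a scale per transcript length (TPM), Ly6e, a GPI-anchored surface protein that limits the entry of some viruses, was the highest member in every group, at 4616 ± 78.2 TPM (SD, n = 3) in follicular WT cells. Ifi27l2a, a small interferon-induced protein, followed at 565 ± 196 TPM and Ly6a (Sca-1) at 543 ± 71.4 TPM in the same cells, an order within their spread. Ifi47, an immunity-related GTPase, stood at 121 ± 17.5 TPM and Irf9, the DNA-binding partner of STAT2, at 99.4 ± 12.5 TPM. At the other end lay Ifih1, the cytosolic RNA sensor MDA5, at 1.75 ± 0.416 TPM, and Iigp1, an immunity-related GTPase, at 0.333 ± 0.169 TPM. The members thus covered a wide range of levels, and most lay lower after culture with CD40L, as the map of all libraries shows.

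**Figure D1:**
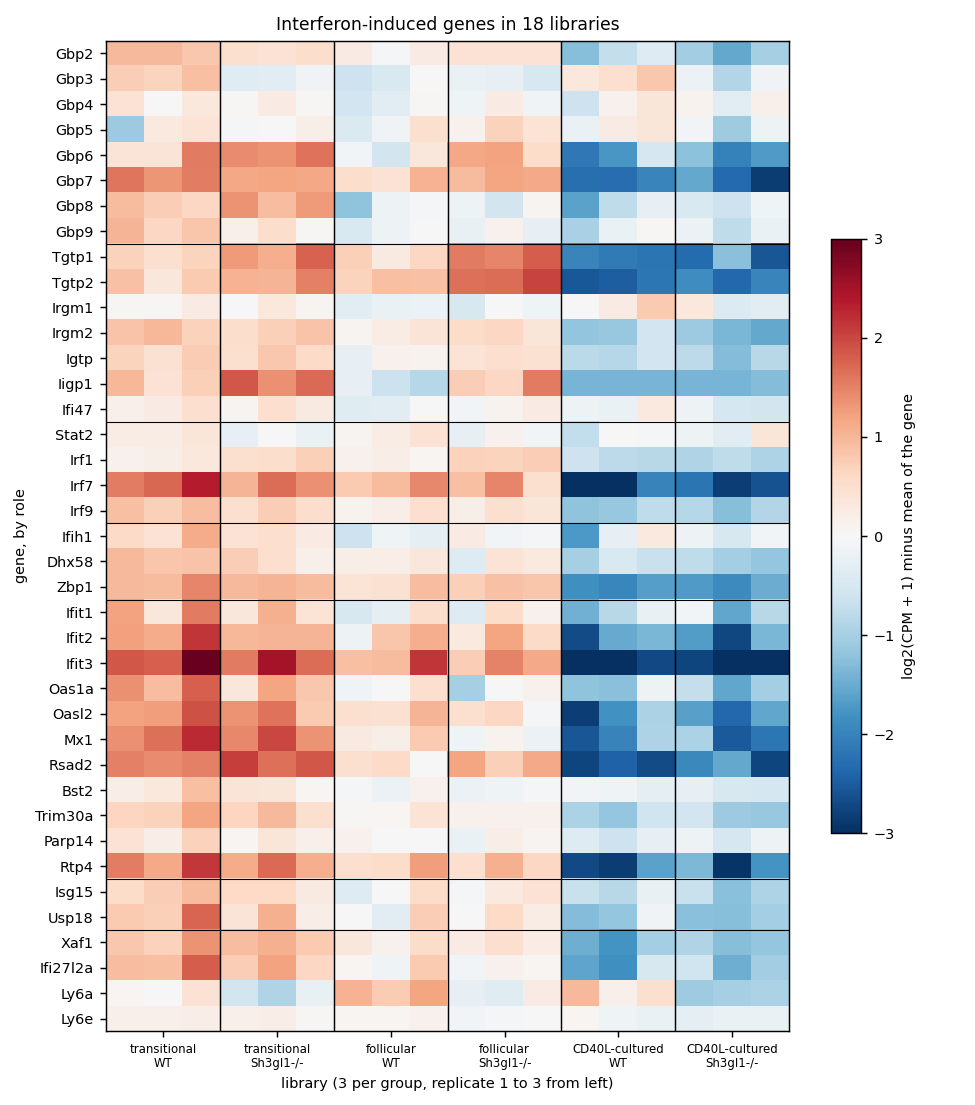
Level of each of the 39 members (rows, grouped by role) in each of the 18 libraries (columns), as log2(CPM + 1) minus the mean of the gene. Colours saturate at 3 in either direction. Most rows are highest in transitional and lowest in CD40L-cultured cells, with Ly6a and Gbp3 among the exceptions.

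Follicular B cells ex vivo addressed whether the resting mature cells of the 2 genotypes differed. Of the 39 members, 5 passed an adjusted p of 0.05 in the edgeR quasi-likelihood test, 4 of them higher and 1 lower in Sh3gl1-/- cells. Of all genes tested, 0.845% passed, 0.485% higher and 0.360% lower. The 4 that were higher were 3 immunity-related GTPases, which guard membranes against intracellular parasites and bacteria, and their regulator Irf1. The median log2 fold change of the members was 0.08, against 0.00 over all genes tested, and 0.32 without follicular WT replicate 3. Between replicates of a group, pooled over all groups, the median of the members itself varied with an SD of 0.23 on the log2 scale. That SD is larger than this median, but it is for single libraries and not for a difference between groups.

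Tgtp2, a GTPase first found in T cells, stood at 121, 141 and 141 CPM (counts scaled to the size of the library) in the WT and at 242, 245 and 311 CPM in the Sh3gl1-/- libraries. Its near-identical neighbour Tgtp1 stood at 17.9, 13.0 and 16.7 against 33.1, 31.2 and 39.5 CPM. For both genes every Sh3gl1-/- library lay above every WT library. The log2 fold change was 0.98 ± 0.11 (SE, edgeR) for Tgtp2, with an adjusted p of 0.0032, and 1.12 ± 0.15 for Tgtp1, with an adjusted p of 0.0079. Of the 50-base stretches of the Tgtp1 transcripts, 79.4% also occur in Tgtp2, so that the division of reads between them is uncertain. Their summed level, which does not depend on that division, was 139, 154 and 158 CPM in WT and 275, 276 and 350 CPM in Sh3gl1-/- libraries.

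Irf1, a transcription factor induced by interferon-γ that acts on many genes of the list, stood at 95.5, 99.6 and 90.8 CPM in WT and at 142, 139 and 145 CPM in Sh3gl1-/- follicular cells. The groups did not overlap, and the log2 fold change was 0.57 ± 0.08 (edgeR, adjusted p = 0.011). Iigp1 was low in both, at 1.23, 0.679 and 0.451 CPM in WT, or 6 to 19 counts, and at 3.38, 3.06 and 6.80 CPM in Sh3gl1-/- libraries, or 45 to 95 counts. Its log2 fold change of 2.46 ± 0.49 lay just under the edgeR threshold (adjusted p = 0.05 after rounding). Ly6a, a surface marker that interferons raise on lymphocytes, went the other way. It stood at 362, 298 and 400 CPM in WT and at 147, 136 and 208 CPM in Sh3gl1-/- libraries, without overlap, and its log2 fold change was -1.11 ± 0.16 (edgeR, adjusted p = 0.01).

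All 7 immunity-related GTPases and all 8 guanylate-binding proteins had a log2 fold change above 0, with a median of 0.46 and of 0.28, but none of the guanylate-binding proteins passed the threshold. By the unadjusted p, 3 of the 8 were under 0.05, and DESeq2 called 1, Gbp6. Gbp6 had the highest value among them, at 7.25, 4.88 and 10.0 CPM in WT against 18.2, 19.1 and 11.7 CPM in Sh3gl1-/- libraries, with an adjusted p of 0.094 in edgeR. Its reads are hard to assign, since 70.7% of its 50-base stretches occur in other genes. None of the 11 antiviral effectors passed in edgeR (2 by the unadjusted p, none by DESeq2), and their median was -0.07. Of all 13610 genes tested 1481 had an unadjusted edgeR p under 0.05, and DESeq2 called 355.

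The 3 T-cell genes Cd3e, Cd3d and Trbc2 were also called higher in Sh3gl1-/- follicular libraries, with log2 fold changes from 0.83 to 1.37. The summed level of the 5 T-cell genes was 69.8 to 94.2 CPM in WT and 132 to 174 CPM in Sh3gl1-/- libraries, and none was at 0. The 5 neutrophil genes summed to 58.7 to 166 CPM in WT and 165 to 742 CPM in Sh3gl1-/- libraries, and the 4 erythroid genes to 792 to 2137 against 1693 to 5213 CPM, without a call. The part of these cells in the differences of Tgtp1, Tgtp2, Irf1, Iigp1 and Ly6a was not tested. Without Sh3gl1-/- replicate 1 only 2 members passed, Irf1 (adjusted p = 0.08), Ly6a (0.07) and Iigp1 (0.11) being lost from the edgeR calls, and without Sh3gl1-/- replicate 3 only 3 passed, Irf1 (0.061) and Iigp1 (0.22) being lost. The Tgtp1 call was lost when all 18 libraries were fitted together (edgeR adjusted p = 0.12). Iigp1 failed the edgeR threshold whichever of the 6 libraries was left out, with adjusted p-values from 0.054 to 0.22.

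**Figure D2:**
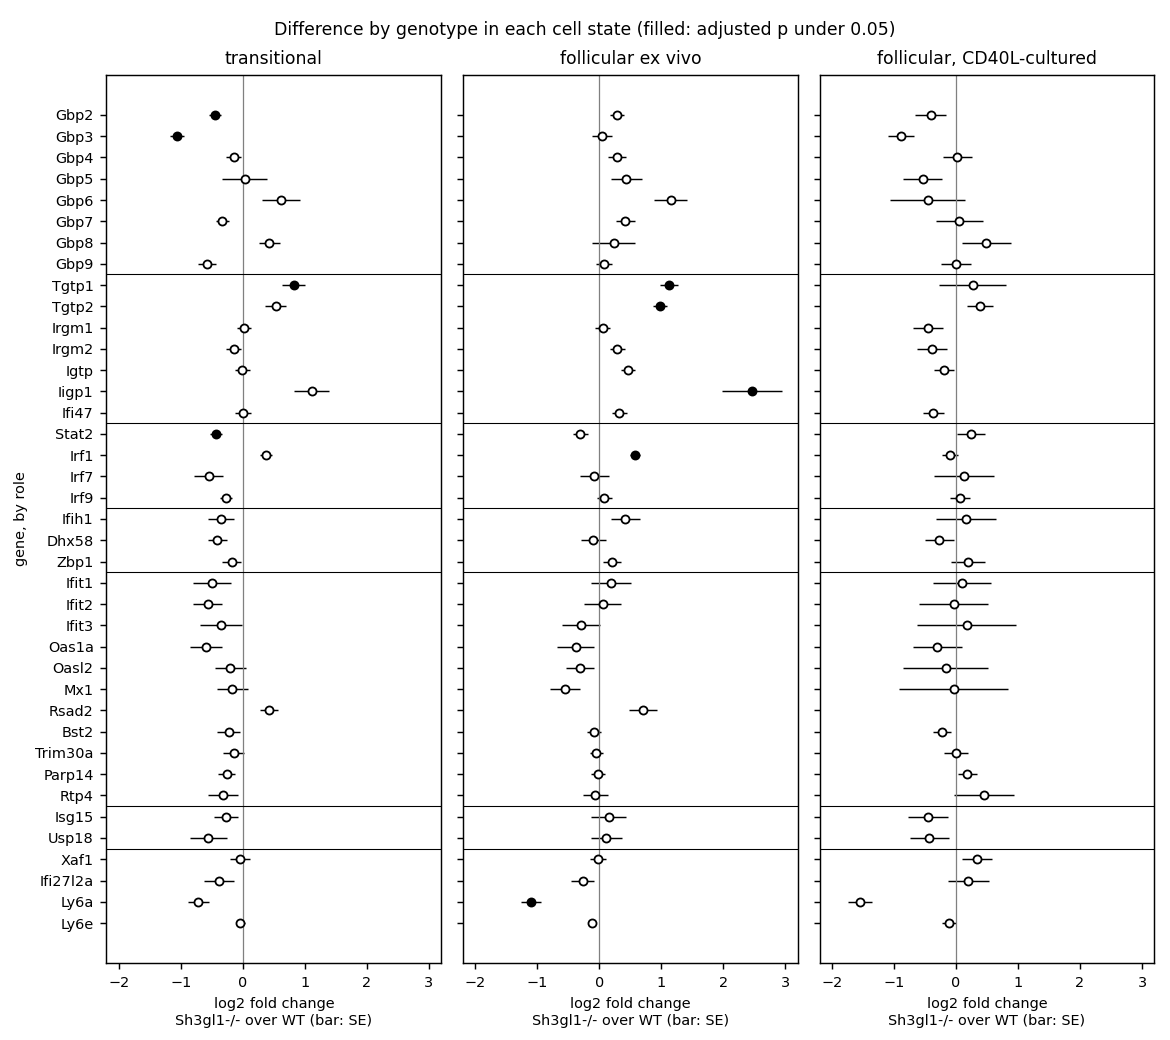
Log2 fold change of each member, Sh3gl1-/- over WT, in transitional, ex vivo follicular and CD40L-cultured follicular cells (x axis; bars are the SE; 3 against 3 libraries). Filled points passed an adjusted p of 0.05, which 4, 5 and 0 members did; Iigp1 and Rsad2 were too low to be tested after culture.

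In transitional B cells, the immature cells that have just reached the spleen, 4 of 39 members differed between the genotypes, 3 lower and 1 higher in Sh3gl1-/- cells. Of all genes tested 3.73% passed the same edgeR threshold, 2.48% lower and 1.26% higher. The 3 that were lower were the guanylate-binding proteins Gbp2 and Gbp3 and the transcription factor Stat2, and the 1 that was higher was Tgtp1. Of the 39 members, 29 had a log2 fold change below 0, and the median was -0.23 against 0.02 over all genes tested. The SD of 0.23 of the members' median is for single libraries over all groups and not for such a difference. In single transitional libraries that median deviated by -0.17 to 0.22 in WT and by -0.09 to 0.12 in Sh3gl1-/- cells.

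Gbp3, a large GTPase of the chromosome 3 cluster, stood at 68.9, 65.4 and 77.8 CPM in WT and at 31.8, 32.1 and 37.7 CPM in Sh3gl1-/- transitional cells. The libraries of the 2 genotypes lay far apart, with a log2 fold change of -1.06 ± 0.11 (edgeR, adjusted p = 0.0056). Gbp2, of the same cluster, stood at 74.4, 73.9 and 66.2 against 52.4, 50.3 and 53.9 CPM, a log2 fold change of -0.45 ± 0.09 (edgeR, adjusted p = 0.033). Stat2, the partner of IRF9 in the type I response, stood at 83.9, 83.6 and 93.0 against 59.99, 71.2 and 62.3 CPM, a log2 fold change of -0.43 ± 0.10 (edgeR, adjusted p = 0.048). Neither gene showed overlap between the genotypes.

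Tgtp1 stood at 17.8, 15.3 and 17.3 CPM in WT and at 27.0, 23.7 and 38.3 CPM in Sh3gl1-/- transitional cells, with a log2 fold change of 0.82 ± 0.18 (edgeR, adjusted p = 0.043). With Tgtp2 added, WT libraries held 158, 111 and 149 CPM and Sh3gl1-/- libraries 184, 179 and 256 CPM, again without overlap. Irf1 had values of 94.8, 98.7 and 108 against 122, 125 and 143 CPM and did not pass, with an adjusted p of 0.068. Ly6a, at 182, 175 and 238 against 119, 93.4 and 150 CPM, had an adjusted p of 0.056. Iigp1, at 4.23, 2.53 and 3.31 against 8.55, 5.74 and 7.54 CPM, had an adjusted p of 0.064 in edgeR. For these 3 genes the libraries of the genotypes did not overlap either, though the threshold was missed. DESeq2 called them, and with them Tgtp2, Gbp7 and Gbp9, for 10 members in all. Of all 13774 genes tested DESeq2 called 1361 and edgeR 514.

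The antiviral effectors leaned the other way without a call in edgeR. Of the 11, 10 had a log2 fold change below 0, with a median of -0.26. An unadjusted p under 0.05 was reached by 3 of the 11 and by 2996 of all 13774 genes tested. DESeq2 called none of the 11 either. Ifit2, an RNA-binding inhibitor of translation, is an example, at 33.0, 30.6 and 63.2 CPM in WT and 28.0, 28.6 and 28.4 CPM in Sh3gl1-/- cells. Here WT replicate 3 alone lay far above the rest, which holds for many members of the list. Transitional WT replicate 3 was the highest of its group for 29 of 39 members, whereas 32.3% of all genes were highest there.

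All 4 erythroid genes were called higher in Sh3gl1-/- transitional libraries, their summed level being 1276 to 2190 CPM in WT and 2458 to 5288 CPM in Sh3gl1-/-. The plasma-cell gene Jchain was also called higher, the 4 plasma-cell genes summing to 428 to 669 against 1085 to 4562 CPM, as was Camp, the 5 neutrophil genes summing to 45.7 to 86.0 against 108 to 522 CPM. The transitional B-cell gene Cd24a was called lower in Sh3gl1-/- cells, at 309, 398 and 389 against 190, 246 and 163 CPM here (-0.87 ± 0.15) and also in follicular cells (-0.75 ± 0.09). Of the 3 listed transitional genes, Cd93 went the other way without a call, at 64.86, 72.2 and 57.45 against 82.82, 85.62 and 57.8 CPM in transitional cells. In follicular cells Cd93 stood at 11.79, 14.38 and 12.41 against 26.28, 22.57 and 14.45 CPM, without overlap or call. Vpreb3 was lower in both states without a call. None of these markers was at 0, and their part in the results was not tested. Gbp3 passed whichever library was left out, but only Gbp3 passed without WT replicate 1, WT replicate 2, Sh3gl1-/- replicate 1 or Sh3gl1-/- replicate 3. Over all genes 216 of 14048, 51 of 14257, 56 of 14007 and 28 of 14180 passed in these fits, in that order. In these fits the edgeR adjusted p lay between 0.073 and 0.12 for Gbp2, 0.082 and 0.19 for Stat2, and 0.088 and 0.14 for Tgtp1. Without WT replicate 3 Tgtp1 (adjusted p = 0.083) and Stat2 (0.1) were lost from the edgeR calls and Gbp6 was gained, and without Sh3gl1-/- replicate 2 Gbp2 (0.072) was lost and Gbp9 gained. Over all genes 284 of 14235 passed without WT replicate 3 and 479 of 14103 without Sh3gl1-/- replicate 2.

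After culture with CD40L no member was called between the genotypes. None of the 37 members tested passed in edgeR, 2 had an unadjusted p under 0.05, and DESeq2 called 2, Gbp3 and Ly6a. How many of all genes DESeq2 called here is not reported, so its 2 calls are not read as particular to the members. An unadjusted edgeR p under 0.05 was reached by 932 of all 13188 genes tested. Of all genes tested 0.0227% passed, all of them lower in Sh3gl1-/- cells (0.0227% lower and 0% higher). Ly6a stood at 342, 194 and 243 CPM in WT and at 82.9, 87.8 and 90.6 CPM in Sh3gl1-/- libraries, a log2 fold change of -1.55 ± 0.20 with an adjusted p of 0.063 in edgeR. Gbp3 stood at 51.3, 57.9 and 71.9 against 36.2, 21.8 and 37.9 CPM, a log2 fold change of -0.89 ± 0.21 with an adjusted p of 0.38 in edgeR. These were the only members whose libraries did not overlap, and the share of all genes without overlap was not computed. Ly6a passed, as the 1 member called, without any 1 of the 3 CD40L-cultured WT libraries.

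**Figure D3:**
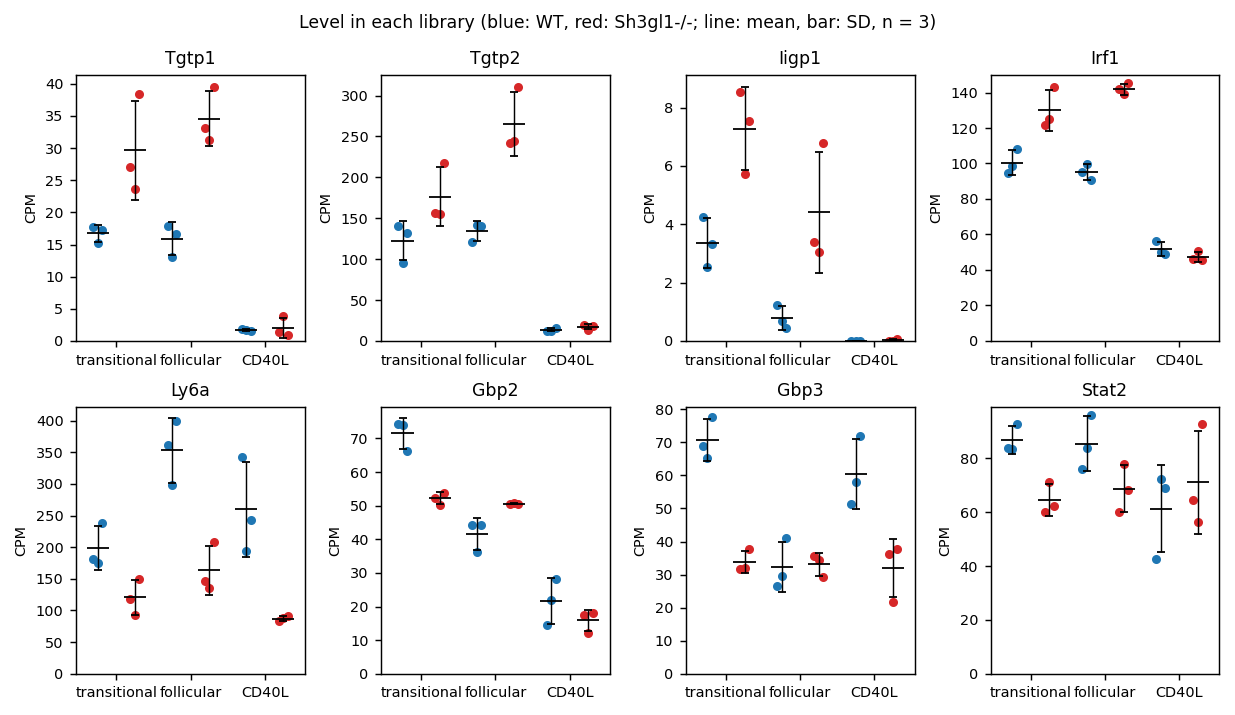
Level in CPM (y axis, from 0) of the 8 members called in a comparison of genotypes, in each library of the 3 cell states (x axis); points are libraries, lines the mean and bars the SD (n = 3). Tgtp1, Tgtp2 and Iigp1 lie higher in Sh3gl1-/- follicular cells ex vivo and far lower after CD40L, and the Ly6a libraries of the genotypes do not overlap in any of the 3 states, with a call in edgeR in follicular cells ex vivo.

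Culture with CD40L was accompanied by lower levels of most of these genes in both genotypes. In WT cells 29 of 39 members passed the edgeR threshold, 27 lower and 2 higher, where 49.3% of all genes passed, 25.7% lower and 23.6% higher. In Sh3gl1-/- cells 29 of 39 passed, all lower, where 42.4% of all genes passed, 21.8% lower and 20.6% higher. The median log2 fold change of the members was -1.03 in WT cells, against -0.08 over all genes, and -1.41 in Sh3gl1-/- cells, against -0.03. Without CD40L-cultured WT replicate 3 the WT median was -1.27. Both comparisons also span the culture itself, since no library was made from cells cultured without CD40L, so that CD40L and culture cannot be told apart.

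Of the antiviral effectors, 9 of 11 were called lower in WT and 8 of 11 in Sh3gl1-/- cells, with medians of -2.76 and -2.27. Ifit3, which supports signalling and RNA binding by the IFIT complex, went from 34.0, 34.8 and 81.7 CPM in WT follicular cells ex vivo to 0.138, 0.936 and 1.84 CPM after culture, a log2 fold change of -5.67 ± 0.57 (edgeR, adjusted p = 2.6e-06). It went from 30.3, 51.5 and 39.8 to 1.76, 0.319 and 1.13 CPM in Sh3gl1-/- cells. Rsad2 (viperin), an enzyme that makes a chain-terminating nucleotide, went from 8.55, 9.07 and 5.79 to 0, 0.267 and 0.0612 CPM in WT and from 14.3, 10.1 and 13.9 to 0.776, 1.36 and 0 CPM in Sh3gl1-/- cells. For these genes every cultured library lay below every ex vivo library.

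Rtp4, another of the antiviral effectors, went from 50.8, 52.7 and 86.3 to 4.62, 4.08 and 11.1 CPM in WT cells. Its log2 fold change was -3.28 ± 0.42 (edgeR, adjusted p = 2.4e-05). Bst2 (tetherin), which holds budding virions at the cell surface, moved least of the effectors in WT cells, at 46.7, 42.7 and 52.9 ex vivo against 45.7, 44.4 and 39.2 CPM after culture. Its change in WT cells did not pass (edgeR adjusted p = 0.28), while that in Sh3gl1-/- cells was -0.32 ± 0.12 with an adjusted p of 0.045 that was lost (0.051 to 0.23 in edgeR) without any 1 of 11 of the 12 libraries fitted. Ifit1, which binds viral RNA caps, passed in neither genotype, with adjusted p-values of 0.14 and 0.1 in edgeR. Of the 50-base stretches of Ifit3 51.2% occur in Ifit3b, and of those of Oas1a 57.6% occur in Oas1g, and their levels are uncertain to that extent.

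The immunity-related GTPases divided. Tgtp2 went from 121, 141 and 141 to 12.2, 12.7 and 16.03 CPM in WT cells and from 242, 245 and 311 to 20.1, 13.9 and 18.3 CPM in Sh3gl1-/- cells. The log2 fold changes were -3.33 ± 0.17 and -3.95 ± 0.17 (edgeR, adjusted p = 4.7e-09 and 1.5e-09). Iigp1 was at 0 in all 3 cultured WT libraries and at 0, 0 and 1 count in the cultured Sh3gl1-/- libraries, which makes it at least 3.995-fold lower in WT and at least 20.7-fold lower in Sh3gl1-/- cells, against a floor of 3 counts per library. Irgm2 and Igtp, which lie side by side on chromosome 11 and overlap in the annotation, had log2 fold changes of -1.26 ± 0.19 and -0.78 ± 0.14 in WT cells, both called. Irgm1, a regulator of the family that protects host membranes, was instead called higher in WT cells, at 99.9, 111 and 113 CPM ex vivo and 126, 152 and 220 CPM after culture (0.59 ± 0.21, edgeR adjusted p = 0.033). This call was lost without CD40L-cultured WT replicate 3 (edgeR adjusted p = 0.19) or without follicular WT replicate 1 (0.094), 2 (0.054) or 3 (0.06).

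Among the guanylate-binding proteins 3 of 8 were called lower and 1 higher in WT cells, and 4 of 8 lower in Sh3gl1-/- cells. Gbp7, which acts at vacuoles that hold parasites, went from 38.0, 35.5 and 54.8 to 4.69, 4.61 and 5.93 CPM in WT and from 51.4, 60.9 and 58.8 to 8.33, 4.39 and 2.76 CPM in Sh3gl1-/- cells. Gbp3 was the member called higher in WT cells, from 26.4, 29.4 and 41.0 to 51.3, 57.9 and 71.9 CPM (0.88 ± 0.21, edgeR adjusted p = 0.0035). In Sh3gl1-/- cells it stood at 35.7, 34.5 and 29.2 ex vivo and 36.2, 21.8 and 37.9 CPM after culture, with a log2 fold change of -0.07 ± 0.21. Gbp4, Gbp8 and Gbp9 passed in neither genotype. These 3 genes overlap on the minus strand of chromosome 5 in the annotation, where reads of one can count for another.

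Of the transcription factors, Irf7, which amplifies type I interferon production, fell from 32.7, 37.2 and 52.2 to 1.38, 1.47 and 3.92 CPM in WT cells (log2 fold change -4.18 ± 0.39, edgeR adjusted p = 1.2e-06). Its log2 fold change was -3.99 ± 0.39 in Sh3gl1-/- cells. Irf9 fell by 1.33 ± 0.16 and by 1.36 ± 0.16 on the log2 scale in the 2 genotypes. Irf1 fell in WT cells from 95.5, 99.6 and 90.8 to 56.5, 50.4 and 48.8 CPM, and in Sh3gl1-/- cells from 142, 139 and 145 to 46.0, 50.7 and 45.4 CPM. The WT and Sh3gl1-/- libraries thus overlapped after culture but not before. Stat2 passed in neither genotype, with log2 fold changes of -0.51 ± 0.21 and 0.03 ± 0.21 (edgeR, adjusted p = 0.057 and 0.91). With the replicate number as a block, which pairs the WT samples, it passed in WT cells (-0.54 ± 0.17, edgeR adjusted p = 0.022).

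The sensors Zbp1, which binds Z-form nucleic acids, and Dhx58 (LGP2), which tunes RNA sensing, were called lower in both genotypes, with log2 fold changes of -2.72 ± 0.20 and -2.74 ± 0.20 for Zbp1. Ifih1 passed in neither. ISG15, a ubiquitin-like modifier, and its protease Usp18, a brake on the type I receptor, were called lower in both, in WT cells with adjusted p-values of 0.048 and 0.018 in edgeR. These 2 WT calls were lost without follicular WT replicate 3 (0.25 and 0.11), and also without CD40L-cultured WT replicate 1 (0.1 and 0.06) or 2 (0.15 and 0.072). Xaf1, Ifi27l2a and Ly6e were called lower in both genotypes, with Ly6e at -0.20 ± 0.07 and -0.21 ± 0.07, and Ly6a was called lower in Sh3gl1-/- cells (edgeR adjusted p = 0.002) and had an adjusted p of 0.062 in WT cells. With the replicate number as a block within each genotype, Ly6a passed in WT cells too (-0.50 ± 0.15, edgeR adjusted p = 0.015) and Ly6e was lost, and the Ly6a difference between genotypes had an adjusted p of 0.66 without and 0.65 with the block. That block was chosen after seeing the data. The Ly6e call failed in WT cells without follicular WT replicate 3 (edgeR adjusted p = 0.14) and in Sh3gl1-/- cells without CD40L-cultured Sh3gl1-/- replicate 1 (0.16), among other libraries.

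The 5 T-cell, 4 NK-cell, 5 neutrophil and 4 erythroid genes were all called lower after culture in both genotypes. The summed level of the T-cell genes was 11.6 to 14.8 CPM in cultured WT and 20.7 to 24.4 CPM in cultured Sh3gl1-/- cells, and that of the NK-cell genes 1.896 to 2.67 and 1.69 to 3.27 CPM, against 14.1 to 56.3 and 35.9 to 52.0 CPM ex vivo. The erythroid genes summed to 792 to 2137 CPM in WT and 1693 to 5213 CPM in Sh3gl1-/- follicular cells ex vivo, and to at most 213 and 63.8 CPM after culture. The part of these cell types in the fall of the members was not tested.

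Whether the genotypes responded differently to CD40L was tested by the interaction of genotype and culture. None of the 39 members passed in edgeR, where 0% of all genes did. An unadjusted p under 0.05 was reached by 9 members and by 1278 of all 14460 genes tested. DESeq2 called 1 member, Irf1. How many of all genes DESeq2 called for this interaction is not reported here, so that call does not single out Irf1. The Irf1 difference was -0.70 ± 0.14 on the log2 scale, Sh3gl1-/- minus WT, with an adjusted p of 0.31 in edgeR. The 6 immunity-related GTPases other than Iigp1, which was at 0 after culture, had a difference below 0, between -0.89 and -0.53, and 7 of 8 guanylate-binding proteins did, with a median of -0.55. The antiviral effectors had a median difference of 0.12. The calls of Gbp3 and Irgm1 in WT and not in Sh3gl1-/- cells are therefore not shown to differ between the genotypes, with adjusted p-values of 0.47 and 0.63 for their differences in edgeR.

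**Figure D4:**
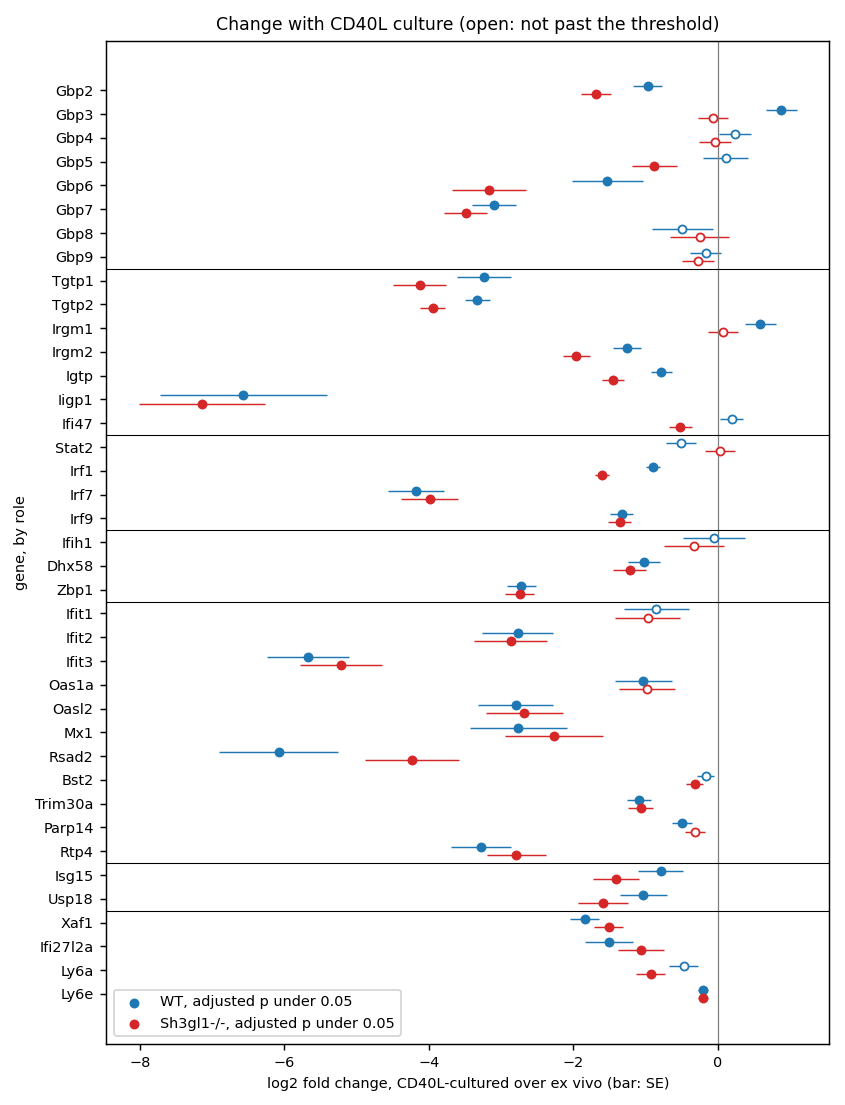
Log2 fold change of each member, CD40L-cultured over ex vivo follicular cells (x axis; bars are the SE), in WT (blue) and Sh3gl1-/- cells (red). Filled points passed an adjusted p of 0.05, 29 in each genotype, and only Gbp3 and Irgm1 in WT lie to the right of 0 among them.

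Follicular cells, the mature stage that follows the transitional stage, had lower levels of most members than transitional cells. In WT cells 30 of 39 members passed in edgeR, 29 lower and 1 higher in follicular cells, where 25.9% of all genes passed, 14.2% lower and 11.7% higher. The median log2 fold change of the members was -0.71, against 0.03 over all genes. In Sh3gl1-/- cells 10 of 39 passed, 9 lower and 1 higher, where 10.4% of all genes passed, 6.71% lower and 3.70% higher. Their median was -0.32, against 0.00 over all genes. With the replicate number as a block within each genotype 33 members passed in WT, with Irgm1, Ifit3 and Isg15 gained, and 14 in Sh3gl1-/- cells, with Irgm1, Ifit3, Bst2, Rtp4 and Ly6a gained and Ly6e lost. That block was chosen after seeing the data. The shares of all genes that passed with it are not reported here, so the gains are not read as particular to the members.

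In WT cells 10 of 11 antiviral effectors, 7 of 8 guanylate-binding proteins and all 3 sensors were lower in follicular cells. Mx1, a dynamin-like GTPase that traps viral nucleocapsids, stood at 18.5, 22.6 and 34.6 CPM in transitional and at 8.10, 7.53 and 12.03 CPM in follicular WT cells (-1.45 ± 0.25, edgeR adjusted p = 0.0011). In Sh3gl1-/- cells it stood at 19.6, 29.3 and 18.2 and at 5.93, 7.08 and 5.65 CPM (-1.85 ± 0.26, edgeR adjusted p = 0.00043). The stages did not overlap in either genotype. Rsad2 likewise fell in both, by 1.18 ± 0.19 and 0.92 ± 0.19 on the log2 scale, and so did Oas1a and Oasl2, of the oligoadenylate synthetase family, and Trim30a, a restrainer of NF-κB signalling.

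Gbp2 and Gbp3 were called between the stages in WT and not in Sh3gl1-/- cells. Gbp3 went from 68.9, 65.4 and 77.8 CPM in transitional to 26.4, 29.4 and 41.0 CPM in follicular WT cells (-1.13 ± 0.15, edgeR adjusted p = 0.00013), and from 31.8, 32.1 and 37.7 to 35.7, 34.5 and 29.2 CPM in Sh3gl1-/- cells (-0.04 ± 0.15). Gbp2 went from 74.4, 73.9 and 66.2 to 44.2, 36.2 and 44.4 CPM in WT (-0.78 ± 0.10) and from 52.4, 50.3 and 53.9 to 50.6, 50.7 and 50.5 CPM in Sh3gl1-/- cells (-0.06 ± 0.09). The WT stages lay apart in both genes, while the Sh3gl1-/- libraries of the stages overlapped. The difference between genotypes was 1.08 ± 0.21 for Gbp3 and 0.72 ± 0.13 for Gbp2 on the log2 scale, Sh3gl1-/- minus WT, with adjusted p-values of 0.072 and 0.057 in edgeR.

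Over all members, none passed that test of the difference in edgeR, where 0.0686% of all genes did. An unadjusted p under 0.05 was reached by 8 members and by 1992 of all 14580 genes tested. DESeq2 called 3 members, Gbp2, Gbp3 and Gbp7. How many of all genes DESeq2 called in this test is not reported here, so its 3 calls are not read as particular to the members. Replicates with the same number deviated together in both stages, and with the replicate number as a block within each genotype Gbp3 (1.10 ± 0.18, adjusted p = 0.024) and Gbp2 (0.72 ± 0.14, adjusted p = 0.042) passed in edgeR. The block was chosen after seeing the data and its pairing comes from the same data, so these passes are no separate support. How many of all genes passed with it is not reported here. Of the 39 members 34 had a difference above 0, with a median of 0.31, against -0.02 over all genes tested. Without follicular WT replicate 3 the test called 2 members, Gbp3 and Gbp7, and without any other single library it called 0.

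A few members ran against the general direction. Ly6a was higher in follicular than in transitional WT cells, at 362, 298 and 400 against 182, 175 and 238 CPM (0.84 ± 0.19, edgeR adjusted p = 0.0056), and had a log2 fold change of 0.43 ± 0.19 in Sh3gl1-/- cells, which passed only with the block (0.43 ± 0.08, edgeR adjusted p = 0.003). Tgtp2 was higher in follicular Sh3gl1-/- cells (0.58 ± 0.16, edgeR adjusted p = 0.032) and had a log2 fold change of 0.14 ± 0.16 in WT cells. The Tgtp2 call was lost without transitional Sh3gl1-/- replicate 1 (edgeR adjusted p = 0.12) or 2 (0.14) or follicular Sh3gl1-/- replicate 3 (0.15). Stat2 and Irf1 did not pass in either genotype, their log2 fold changes lying between -0.07 and 0.11.

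The 5 genes of monocytes and macrophages were called lower in follicular than in transitional WT libraries, and 4 of 5 in Sh3gl1-/- libraries. They summed to 366 to 434 and 297 to 545 CPM in transitional cells and to 95.5 to 127 and 94.9 to 232 CPM in follicular cells of the 2 genotypes, and their part in the difference of the members was not tested. Leaving out single libraries moved both counts, and the calls of Oas1a, Oasl2 and Trim30a in Sh3gl1-/- cells were among those lost. In WT cells 16 members passed without follicular replicate 1, 17 without follicular replicate 2 and 18 without transitional replicate 3. For Sh3gl1-/- cells 3 to 6 passed without transitional replicate 1 or 2 or any 1 of the 3 follicular libraries, fewest without transitional replicate 2. The counts of all genes in these fits are not reported here, so the loss of calls is not read as particular to the members.

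**Figure D5:**
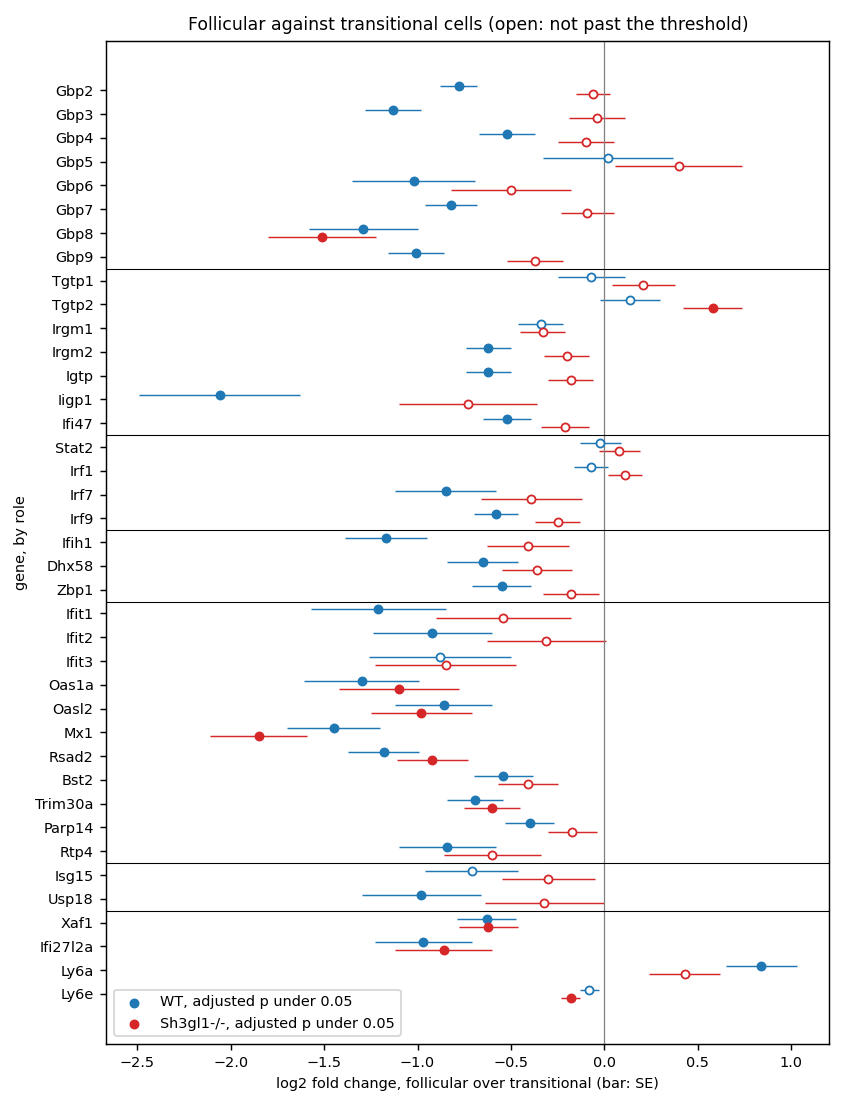
Log2 fold change of each member, follicular over transitional cells ex vivo (x axis; bars are the SE), in WT (blue) and Sh3gl1-/- cells (red). Filled points passed an adjusted p of 0.05, 30 in WT and 10 in Sh3gl1-/- cells; Gbp2 and Gbp3 lie near 0 in Sh3gl1-/- cells only.

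The rest of the interferon pathway was read from a list of 91 further genes. Of the 21 interferon genes 17 had 0 counts in every library, and of the other 4 only Ifng, the gene of interferon-γ, exceeded 7 counts in any library. A count of 0 allows up to 3 counts, or 0.176 to 0.240 CPM in these libraries. Ifng stood at 4.10, 1.49 and 4.34 CPM in transitional WT, at 4.92, 6.12 and 2.73 CPM in transitional Sh3gl1-/- and at no more than 2.15 CPM in any other library, and it was lower in follicular than in transitional WT cells (-4.14 ± 0.85, edgeR adjusted p = 0.0031). In Sh3gl1-/- follicular cells it stood at 0.375, 0.51 and 2.15 CPM, and the change of -2.19 ± 0.69 did not pass (edgeR adjusted p = 0.058), nor did the difference between genotypes (adjusted p = 0.46).

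The receptor genes Ifnar1, Ifnar2, Ifngr1, Ifngr2 and Il10rb were present in all groups and none was called between the genotypes in any of the 3 cell states. Ifnlr1, the specific chain of the type III receptor, stood at 0.0752 to 0.679 CPM in WT follicular cells ex vivo and at 27.9, 13.8 and 11.1 CPM after culture (5.20 ± 0.49, edgeR adjusted p = 1.4e-06). In Sh3gl1-/- cells it stood at 1.43, 1.34 and 0.787 CPM ex vivo and at 18.9, 24.4 and 17.6 CPM after culture. It rose while most induced genes fell.

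Between the genotypes, 3 of 66 tested pathway genes were called in transitional cells (4.55%, where 3.73% of all genes were), all lower in Sh3gl1-/-, namely the guanylate-binding protein Gbp2b, the growth regulator Slfn2 and Ifit3b. Gbp2b lies beside Gbp2 and Gbp3 and stood at 29.3, 31.0 and 31.6 CPM in WT against 18.3, 20.1 and 20.5 CPM in Sh3gl1-/- cells (-0.64 ± 0.11, edgeR adjusted p = 0.025). In follicular cells 2 of 64 were called (0.845% of all genes were), both higher in Sh3gl1-/-, among them Nlrc5, the transactivator of MHC class I genes (0.70 ± 0.11, edgeR adjusted p = 0.016). Nlrc5 stood at 35.4, 35.7 and 42.0 CPM in WT and at 65.7, 57.7 and 60.2 CPM in Sh3gl1-/- libraries, without overlap. After culture 0 of 57 were called in edgeR, with 7 at an unadjusted p under 0.05 (932 of all 13188 genes tested) and 0 by DESeq2.

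With CD40L, 48 of 65 pathway genes were called in WT, 43 lower and 5 higher, and 53 of 65 in Sh3gl1-/- cells, 43 lower and 10 higher, where 49.3% and 42.4% of all genes were. Tmem173 (STING), the adaptor of cytosolic DNA sensing, rose in both, from 190, 209 and 220 to 494, 457 and 502 CPM in WT cells, as did Irf5. The lowest adjusted p-values among those that fell were of Ifit1bl1, Gvin1 and Samhd1, a phosphohydrolase that depletes nucleotides. Between the ex vivo stages 28 of 68 were called in WT, 26 of them lower in follicular cells, and 12 of 68 in Sh3gl1-/- cells, 11 of them lower, where 25.9% and 10.4% of all genes were. Jak1, a kinase of all interferon receptors, was called higher in follicular cells of both genotypes. The 2 tests of a difference between genotypes called none of the 65 and 68 genes in edgeR, and DESeq2 called 1 and 3. The DESeq2 counts of all genes in these tests are not reported here. An unadjusted edgeR p under 0.05 was reached by 7 and 6 pathway genes, and by 1278 of 14460 and 1992 of 14580 genes tested.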

How the data were processed

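The authors deposited 1 merged table with RSEM expected counts per gene, TPM and FPKM for each of the 18 libraries. The submitters' processing notes name cutadapt 1.9.1, STAR 2.5.2a, RSEM 1.3.0 and GRCm38. The labels name polyA RNA and a stranded KAPA kit, whereas the methods of the study name SMART-Seq HT, Nextera XT, TopHat and Cufflinks, and the deposited columns are those of RSEM. 0 columns belonged to no sample. FPKM was not used, and TPM only for the order of levels between genes. Symbols were taken from GENCODE M21 for 51719 of 51912 identifiers. The members and all lists were chosen with earlier results of these data known.

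Expected counts were rounded and tested with edgeR 4.0.16 in R 4.3.3 (limma 3.58.1), using the quasi-likelihood F test, TMM scaling and filterByExpr over all genes. The Benjamini-Hochberg adjusted p threshold was 0.05. Each genotype comparison was fitted on its 6 libraries, and the comparisons of culture and of stage, with their interaction, on 12. The SE of a log2 fold change was its size divided by the root of F. CPM levels used TMM factors over all 18 libraries. By the naming rule all 39 members could be named, with Sh3gl1, the interferon and receptor genes, and up to 3 other pathway genes per comparison and direction with the lowest adjusted p. Which members got every library's value was decided with their values seen, as was the sum of Tgtp1 and Tgtp2. Where nothing ties replicates to separate animals, p-values measure only the spread between these libraries. An exact permutation test of 3 against 3 cannot go under 0.1 and was not used. Groups of 3 without overlap reach no lower than that 0.1, and the share of all genes without overlap was not computed for any comparison. Total counts of 12404665 to 18366011 set the floor of 3 counts at 0.176 to 0.240 CPM, which covers counting error only.

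Same-numbered replicates deviated together across 15117 genes between transitional and follicular cells in WT (correlations of 0.103 to 0.242) and Sh3gl1-/- (0.115 to 0.263). They also did between ex vivo and cultured follicular cells in WT (0.136 to 0.224). In Sh3gl1-/- cells the correlations across culture were weaker (0.03 to 0.119), though each replicate still correlated best with its own number. Between genotypes same-numbered replicates did not deviate together (-0.088 to 0.101). The pairing comes from these correlations and not from the labels. Alternatives were DESeq2 1.42.0, RLE size factors, no count filter, a replicate block, 1 fit of all 18 libraries and leaving out single libraries. The test scripts were tested on simulated data. The block within each genotype was chosen after seeing the data. A few genes of the marker and pathway lists are not reported here by name.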

Additional observations from a re-analysis of the deposited data

How the results depend on the processing

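Of the member counts under alternatives other than leaving out 1 library, 41 stayed within 1.5 times the reported count, 13 were higher and 3 lower, and no direction reversed. Between genotypes in transitional cells, where edgeR called 4 members, DESeq2 called 10 (4 higher, 6 lower), no count filter gave 15, the replicate block 2 and the fit of all 18 libraries 1. Over all genes the same 4 settings called 1361 of 13774, 1426 of 24719, 90 of 13774 and 144 of 15117, against 514 of 13774 as reported. In follicular cells no count filter gave 8 in place of 5, and 602 of all 24156 genes in place of 115 of 13610. In CD40L-cultured cells, with 0 reported, DESeq2, no count filter and the fit of all 18 libraries each gave 2, Gbp3 and Ly6a, and the replicate block 1, Ly6a. For the difference in CD40L response DESeq2 gave 1 (Irf1) and no count filter 3 (Gbp3, Gbp6, Ifi47). Between stages in Sh3gl1-/- cells no count filter gave 16 and the fit of all 18 libraries 3 in place of 10. For the difference between stages DESeq2 gave 3, no count filter 5, and the replicate block within each genotype 2. The replicate block moved no other count by more than 1.5 times. The cause of these changes was not tested. Where the count of all genes under a setting is not given, the member count is not read as a result about the members.

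Leaving out 1 library gave 1 to 4 members between genotypes in transitional, 2 to 5 in follicular and 0 to 1 in CD40L-cultured cells. It gave 23 to 29 and 24 to 29 for culture in WT and Sh3gl1-/- cells and 0 to 0 for their difference, and 16 to 31, 3 to 11 and 0 to 2 for the stages. Over all genes the transitional genotype fits called 28 to 479, and the counts for the other fits are not reported here. The median of the members moved by more than its SD of 0.23 between replicates in 4 such fits, 2 of them in CD40L-cultured cells, where it was -0.04 and became 0.21 without WT replicate 3 and -0.30 without Sh3gl1-/- replicate 1. RLE size factors changed no direction, and the median of all genes moved by at most 0.04. At this depth members such as Iigp1, with 0 to 1 counts after culture, allow only a lower bound of the fall.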

Other observations

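Among the WT libraries, replicate 3 held the highest level of its group for 29 of 39 members in transitional, 31 in follicular and 31 in CD40L-cultured cells. Of all genes, 32.3%, 33.7% and 35.8% were highest in those libraries. The median deviation of the members from the group mean was 0.22, 0.24 and 0.41 on the log2 scale. Among the Sh3gl1-/- libraries, replicate 2 was highest for 24 members in both ex vivo states and replicate 1 for 22 after culture. Without WT replicate 3 in both states, 25 members were called between the stages in WT cells and 26 between culture and ex vivo. These fits were not planned beforehand. The counts of all genes in them are not reported here, so the member counts are not read as particular to the members.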
